A study of Mus musculus with 2 samples.

Results

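The CD8 and CD4 coreceptor genes and the transcription factors that set the choice between them were followed in naive CD8+ T cells with and without Bcl11b. The 8 genes were Cd8a, Cd8b1, Cd4, Runx1, Runx2, Runx3, Cbfb and Zbtb7b, taken as every gene spot that carries the symbol in both scanner files. They had 18 probes on 45 spots, of 41174 probes on 43379 gene spots. The cells were CD44low CD25low and came from Bcl11bF/F/dLck-iCre mice and from wild type mice, both of background strain C57BL/6, at a stated purity above 90%. In the first, floxed Bcl11b is cut by an iCre recombinase under the distal Lck promoter, which acts late in T cell development; neither ages nor the number of animals per sample is given. Knockout RNA carried Cy5 and wild-type RNA Cy3 on each of 2 two-colour arrays, called biological replicates 1 and 2, so the data are 1 group of ratios with n = 2. The dyes ran the same way on both arrays, so a dye effect of a probe and the effect of the knockout cannot be told apart.

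CD8 acts as a coreceptor of the T cell receptor for MHC class I, as a dimer of an alpha and a beta chain on most CD8+ T cells, and CD4 does the same for MHC class II. In the CD8 lineage, Runx proteins paired with their partner Cbfb hold Cd4 and Zbtb7b silent and favour cytotoxic genes. ThPOK, the product of Zbtb7b, drives the helper lineage and opposes Runx activity. Bcl11b is a zinc-finger factor needed for commitment to the T cell lineage.

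Runx proteins bind DNA at a core that reads TGTGGT, or ACCACA on the other strand. These stretches are shown because the starts of the Runx genes themselves hold that core, on the sense strand of each gene, with the core in capitals (RefSeq, GRCm38.p6, 30 bases each).
Runx1, chr16:92826025-92826054, minus strand: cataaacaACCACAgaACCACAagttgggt
Runx2, chr17:44814583-44814612, minus strand: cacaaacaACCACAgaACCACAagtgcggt
Runx3, chr4:135120503-135120532, plus strand: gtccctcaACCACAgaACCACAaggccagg
Zbtb7b, chr3:89387743-89387772, minus strand: ctggcgaggaacTGTGGTatgtgagtgggt
A window of each of the 3 Runx genes held a pair of cores in the same order and spacing. The longest run shared by the 3 genes was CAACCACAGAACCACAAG, of 18 bases. It began at base 27 of the Runx1 transcript, at base 22 of that of Runx2, and at -136 from the start of Runx3. Runx2 held a further single core at -80, and that of Zbtb7b began at -89. Windows from 250 bases before to 50 after a start site were searched on both strands. The shared run was in 4 of 32851 windows (0.0122%); the remaining window, of the noncoding gene Gm16225, overlaps that of Runx3 on the opposite strand. The single core was in 16.8% of windows, so its presence once in a Zbtb7b window is common. RefSeq windows were matched for Cd8a, Runx1, Runx2, Runx3, Cbfb and Zbtb7b and not for Cd4 and Cd8b1. The windows of Cd8a and Cbfb did not hold these letters. The shared run was taken from the Runx windows themselves, and the arrays did not measure binding.

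By their brightest probes, both CD8 chains gave signals far above the negative control spots in both genotypes. Cd4 gave signals close to those spots, as the label of the sorted cells has it. The brightest Cd8a probe was at 70.1 times the negative control median in the knockout and 9.53 times in wild type on array 1. On array 2 it was at 30.4 and 22.9 times. A dimmer Cd8a probe was at 2.58 and 1.39 times on array 1. The brightest Cd8b1 probe was at 343 times the negative control median in the knockout and 34.1 times in wild type on array 1, and at 185 and 51.8 times on array 2. The measured Cd4 probe was at 1.33 and 1.34 times on array 1 and at 1.23 and 1.31 times on array 2. All 8 genes of a T cell list (CD3 chains, Lck, Thy1, Cd2 and Trat1) were measured. Their log2 ratio of knockout over wild type was above 0 on both arrays for 7, as for 30.9% of all genes tested. None passed the test given below, and Lck was at 0.19 and 0.01. Of 12 helper and regulatory T cell genes, 7 were not well above background in either genotype, among them Foxp3, Il4 and Ctla4. The share of all genes so dim was not counted. Of 27597 genes on the arrays 9273 passed the filter given below, and of these 12 genes 4 did.

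**Figure D1:**
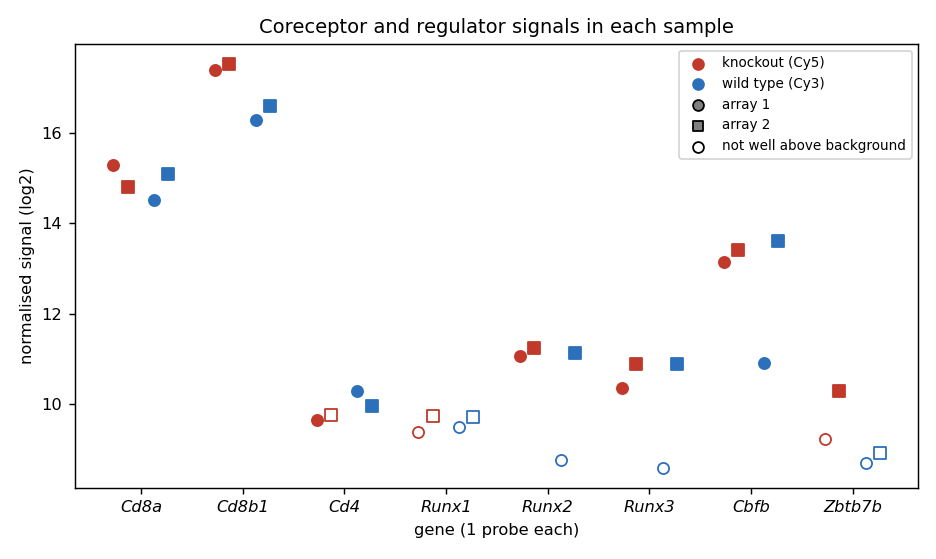
Normalised signal on the log2 scale (vertical axis) for 1 probe of each of the 8 genes (horizontal axis), in knockout and wild-type samples on arrays 1 and 2; each point is 1 sample and open points were not well above background. Cd8b1 is higher in both knockout samples than in both wild-type samples, whereas for Runx2, Runx3 and Cbfb the wild-type sample of array 1 lies below the other 3 samples.

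A gene was tested if a probe was well above background in the same genotype on both arrays, and its brightest such probe stood for it. That left 6 of the 8 genes (Cd8a, Cd8b1, Cd4, Runx2, Runx3 and Cbfb) among 9273 genes. Cd4 entered through wild type alone, and Runx2 and Runx3 through the knockout alone, in each the genotype with the higher mean. None of the 6 passed an adjusted p of 0.05 (limma, Benjamini-Hochberg over all genes), where 1.49% of genes passed. At an unadjusted p under 0.05 there were 3 of 6 (Runx2, Cbfb and Cd8b1), against 9.75% of genes. Of all genes tested, 115 rose (1.24%) and 23 fell (0.248%) with loss of Bcl11b; when the arrays were only centred on their medians, 63 rose and 1 fell. That centring moved the median of all genes from 0.04 to 0.68 on the log2 scale. The standard error was 0.50 for every gene alike, so p-values followed the size of the mean and not the spread of a gene. The smallest mean ratio that passed was 1.68 in size. An exact sign-flip test of a single gene over 2 arrays cannot go below a two-sided p of 0.5.

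The arrays differed for these genes. On array 1, 4 of the 6 were past 2-fold, where 27.0% of genes were, and on array 2 none was, where 2.84% were. None was past 2-fold in the same direction on both, as 1.35% of genes were. The median log2 ratio of the 6 was 1.44 on array 1 and -0.11 on array 2, beside 0.05 and -0.01 over all genes tested. Both arrays gave a ratio above 0 for 2 of the 6 (Cd8b1 and Runx2; 30.9% of genes), below 0 for 1 (Cd4; 30.8%) and opposite signs for 3 (Cd8a, Runx3 and Cbfb; 38.2%). With median centring in place of loess, 5 of the 6 were above 0 on both arrays, these 3 included, and none had opposite signs; that centring put 64.9% of all genes above 0 on both.

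**Figure D2:**
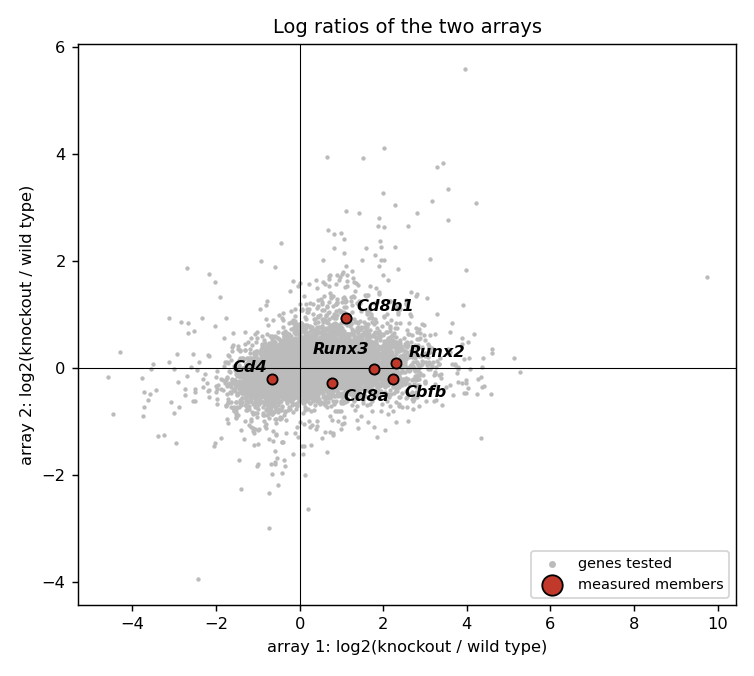
Log2 ratio of knockout over wild type on array 1 (horizontal axis) against array 2 (vertical axis); grey points are the 9273 genes tested and red points the 6 measured coreceptor and regulator genes. Cd8b1 lies near 1 on both axes, while Runx2, Runx3 and Cbfb lie between 1.78 and 2.31 on array 1 and near 0 on array 2.

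Cd8b1, the CD8 beta chain that pairs with the alpha chain, was higher in the knockout on both arrays. Its normalised log2 signal was 17.40 in the knockout and 16.30 in wild type on array 1, and 17.54 and 16.61 on array 2. Both knockout samples were above both wild-type samples. The share of all genes that separate in this way was not counted, and 30.9% had ratios above 0 on both arrays. The log2 ratios were 1.11 and 0.93, a mean of 1.02 ± 0.13 (SD, n = 2; 2.03-fold), with a 95% interval of 0.045 to 1.99 from the shared standard error. It did not pass (adjusted p = 0.467, limma). The mean was 2.20 with median centring and 0.48 when averaged with the other probe of that name. The ratio on array 2 was matched or exceeded by few genes, 2.19% being higher, whereas 18.5% were higher on array 1. The software of the scanner gave 1.07 and 0.59 for the same spots. This probe lies at chr6:71266583-71266641 (mm8, plus strand, by the array design). No spot of it was saturated, but 41 of 41174 probes were brighter, so the loess curve rests on few spots there. The other probe named Cd8b1 is placed by the array design at chr5:115404420-115404479, on another chromosome than the gene. It stood at 1.21 to 1.46 times the negative control median in every sample and gave -0.14 and 0.03.

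Cd8a, the CD8 alpha chain, had no direction shared by the arrays after loess. Its brightest probe, at chr6:71306845-71306904 (mm8, plus strand), gave 15.31 in the knockout and 14.52 in wild type on array 1, and 14.81 and 15.09 on array 2. The genotypes overlapped: each was the higher on 1 array. The log2 ratios were 0.79 and -0.28 (mean 0.25 ± 0.76, SD, n = 2; adjusted p = 0.945, limma). With median centring, which raised the median of all genes, they were 2.30 and 0.28 (mean 1.29). A difference between the arrays at least as wide was seen in 21.6% of genes.

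On array 1 the ratios of the 3 Cd8a probes rose from the 5′ end to the 3′ end. The ratio there was -0.18 for the probe nearest the 5′ end (chr6:71303400-71303459), 0.79 for the middle probe and 1.95 for the probe nearest the 3′ end (chr6:71308426-71308485). On array 2 the same probes gave -0.71, -0.28 and -0.42. All 3 were well above background in all 4 samples, and the outer probes are 5026 bases apart on mm8. On array 1 the 5′ probe was at 2.58 times the negative control median in the knockout and 1.39 times in wild type. The middle probe was at 70.1 and 9.53 times and the 3′-most at 78.5 and 5.04 times. For the outer probes position and brightness thus cannot be told apart. The 3′-most probe exceeded the 5′-most by 2.13 on array 1 and by 0.29 on array 2. Of 1674 genes with measured probes at least 100 bases apart, 3.88% had a difference as large on array 1. Over those genes the 3′-most probe had the higher ratio in 59.5% on array 1 and in 55.3% on array 2, with median differences of 0.17 and 0.03.

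**Figure D3:**
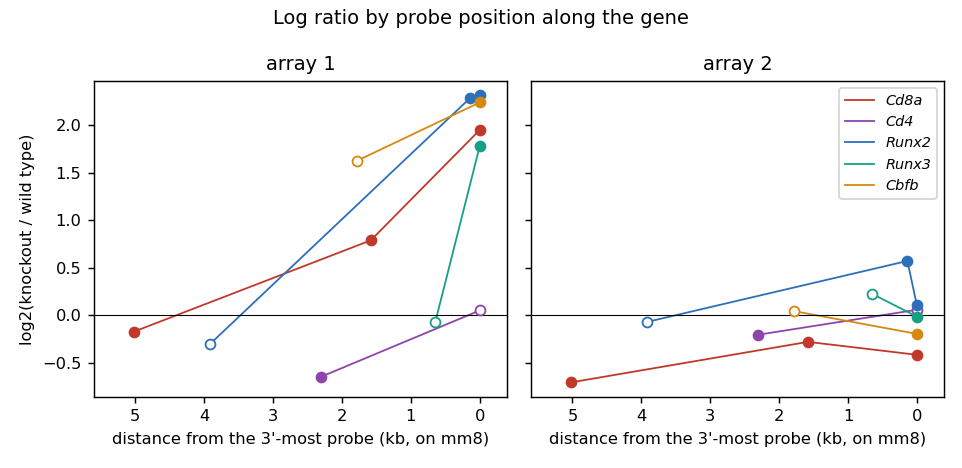
Log2 ratio of knockout over wild type (vertical axis) by genomic distance of a probe from the 3′-most probe of its gene in kb on mm8 (horizontal axis, 3′ end to the right), on array 1 (left) and array 2 (right); open points were left out as dim, and a Runx2 probe 210114 bases away is not drawn. On array 1 the 3′-most probe is the highest of each gene, with Cd8a running from -0.18 to 1.95, and on array 2 the Cd8a probes lie between -0.71 and -0.28.

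The regulators showed the same order on array 1 with fewer measured probes. The 2 measured Runx2 probes, 138 bases apart at the 3′ end, gave 2.31 and 2.29, whereas the 2 further upstream, not well above background in any sample, gave -0.30 each. The 3′ probe of Runx3 gave 1.78 and a dim probe 646 bases upstream -0.08. For Cbfb the 3′ probe gave 2.24 and a dim probe 1786 bases upstream 1.62. Apart from the Runx2 probe 138 bases away, every probe upstream was dim here, so position and brightness cannot be told apart for these genes.

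Cd4, the coreceptor of helper T cells, gave a slightly lower signal in the knockout sample of each array. Its measured probe, at chr6:124833307-124833366 (mm8, minus strand), gave 9.63 in the knockout and 10.28 in wild type on array 1, and 9.75 and 9.95 on array 2. Both knockout samples were below both wild-type samples, and that of array 2 was not well above background. Ratios below 0 on both arrays were found in 30.8% of genes, and the share so separated was not counted. The log2 ratios were -0.65 and -0.21 (mean -0.43 ± 0.31, SD, n = 2; adjusted p = 0.913, limma). The sign was the same under every background correction and normalisation tried. The probe was tested only because wild type, where it was higher, was well above background on both arrays. That filter could favour a ratio below 0. A further Cd4 probe was not well above background in any sample and gave 0.05 and 0.06.

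Single probes of Cd8a, Cd4 and Runx2 were spotted repeatedly, which shows the error within an array. The Cd4 probe above, on 10 spots, ranged from -0.79 to -0.51 on array 1 and from -0.29 to -0.14 on array 2, all below 0. The 3′-most Cd8a probe ranged over 10 spots from 1.79 to 2.09 on array 1 and from -0.46 to -0.38 on array 2. Its SD between arrays was 1.67, which is 16.7 times the larger of the SDs between spots (0.10 and 0.03). For Runx2 the SD between arrays was 1.56 and those between spots were 0.17, over the 8 spots left of 10, and 0.02.

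**Figure D4:**
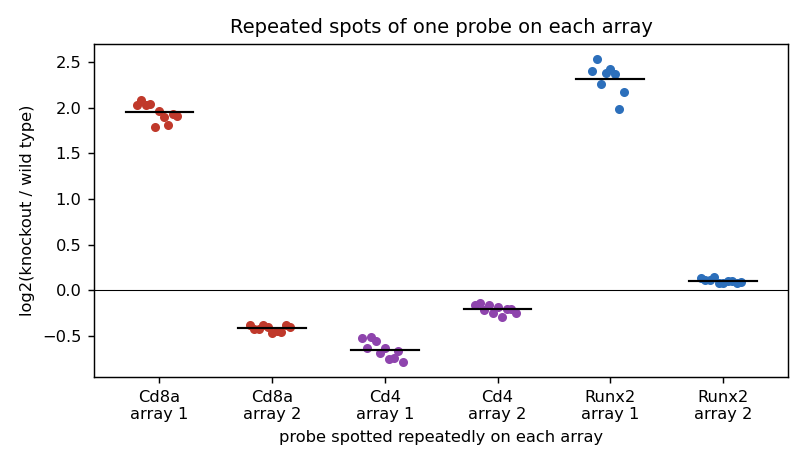
Log2 ratio of knockout over wild type (vertical axis) for each spot of the repeatedly printed probes of Cd8a, Cd4 and Runx2 on arrays 1 and 2 (horizontal axis); bars are means over spots, which are technical and not biological replicates. The Cd8a spots lie from 1.79 to 2.09 on array 1 and from -0.46 to -0.38 on array 2, with no overlap.

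Runx2, a Runx factor best known from bone formation, was past 2-fold higher in the knockout on array 1 and near equal on array 2. It gave 11.05 in the knockout and 8.74 in wild type on array 1, and 11.23 and 11.13 on array 2. The 2 knockout samples and the wild-type sample of array 2 lay close together, and the wild-type sample of array 1 was low and not well above background. The ratios were 2.31 and 0.10 (mean 1.21 ± 1.56, SD, n = 2; adjusted p = 0.300, limma). Wild type was thus measured on 1 of 2 arrays, and the size of the array 1 ratio and of the mean rests on a dim signal, at 0.845 times the negative control median. The probe lies at chr17:44067120-44067179 (mm8, minus strand), and the neighbouring measured probe gave 2.29 and 0.57.

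Runx3, the Runx factor most tied to the CD8 lineage, followed the same pattern. It gave 10.36 in the knockout and 8.58 in wild type on array 1, and 10.87 and 10.89 on array 2. Again the wild-type sample of array 1 stood low and was not well above background. The ratios were 1.78 and -0.02 (mean 0.88 ± 1.27, SD, n = 2; adjusted p = 0.607, limma), from a probe at chr4:134448766-134448825 (mm8, plus strand). Here too wild type was measured on 1 of 2 arrays, and the array 1 ratio and the mean rest on a wild-type signal at 0.844 times the negative control median.

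Cbfb encodes the subunit that binds no DNA itself and strengthens the binding of every Runx protein. It was well above background in all 4 samples, at 13.15 in the knockout and 10.91 in wild type on array 1, and at 13.41 and 13.61 on array 2. The wild-type sample of array 1 was the only low value, so the genotypes overlapped. The ratios were 2.24 and -0.20 (mean 1.02 ± 1.72, SD, n = 2; adjusted p = 0.465, limma), from a probe at chr8:108106866-108106925 (mm8, plus strand). The arrays were this far apart in 2.86% of genes.

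For Runx2, Runx3 and Cbfb the gap lay in the wild-type channel of array 1. From array 2 to array 1 the knockout signal of these 3 genes changed by -0.18 (Runx2), -0.52 (Runx3) and -0.27 (Cbfb) on the log2 scale. The wild-type signal of Cbfb changed by -2.70. Those of Runx2 and Runx3 were also lower on array 1, by an amount that their dim signals there do not fix. Over all genes tested, 21.3% had a wild-type signal that moved by more than 1 between the arrays and 7.41% a knockout signal that did. Cd8a moved in both channels: from the 5′ to the 3′ probe its knockout signal changed by -1.62, 0.50 and 0.97, and its wild-type signal by -2.15, -0.57 and -1.40. The wild-type signal of Cd8b1 changed by -0.31. On that array 10739 gene spots were well above background in wild type, against 13446 on array 2; in the knockout there were 17276 and 10955.

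Runx1, the Runx factor of early thymocytes, and Zbtb7b were not tested. Neither Runx1 probe was well above background in any sample, at 1.07 to 1.26 times the negative control median. They gave -0.09 and 0.03 (chr16:92493027-92493086, mm8, minus strand) and -0.23 and 0.20 for a probe whose ends lie 30453 bases apart on the genome, as a probe across a splice junction does. Zbtb7b had a single probe (chr3:89465235-89465294, mm8, minus strand), well above background only in the knockout of array 2. Its log2 signal was 9.22 in the knockout and 8.68 in wild type on array 1, and 10.28 and 8.91 on array 2. Both knockout values were above both wild-type values, with ratios of 0.54 and 1.37, and the share of genes so separated was not counted. Both wild-type samples were dim, and the knockout was measured on 1 of 2 arrays. The mean knockout signal was 1.07-fold above a wild-type floor, but its array 1 part was dim, so this is no lower bound. The floor was, per array, the higher of the probe's own wild-type signal and the lowest signal counted as well above background. Without the filter on dim probes, Zbtb7b did not pass either (adjusted p = 0.457, limma).

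Genes with the most similar pair of ratios were found by Euclidean distance over the 2 arrays among 5543 genes well above background in all samples. Nearest to Cd8b1 were Cotl1, Herpud1 and Hsph1, with 11 genes within 0.2. Nearest to Cbfb were Rraga, Rpl36a and Fkbp3 (28 genes within 0.2), to Runx2 Sfxn1, Ostf1 and Serinc1 (25), and to Runx3 Rpl15, Csnk1g3 and Ube2k (58). For Cd8a they were Csf2ra, Mrpl44 and Msh3 (130) and for Cd4 Pgghg, Neil1 and Renbp (319). With 2 values per gene, such likeness is a description of the ratios only.

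Other factors of the choice between the CD4 and CD8 lineages included 1 gene that rose and none that fell among 20 measured of 21. The list's median log2 ratio was 0.91 on array 1 and 0.03 on array 2. The gene that passed was Ets1, at 4.37 on array 1 and 0.02 on array 2 (adjusted p = 0.00242, limma). Wild type was well above background on 1 of 2 arrays for Ets1 and likewise for Gata3, so the size of their mean ratios rests partly on a dim signal. Gata3, which helps to induce ThPOK, was at 2.03 and 0.97 without passing (adjusted p = 0.112, limma). Myb, which acts upstream of Gata3 in thymocytes, was at 1.39 and 0.71. Bcl11b itself was at -1.45 and -1.73 by its brighter probe and at -0.35 and -2.32 by the other, and did not pass (adjusted p = 0.075, limma). Where these probes lie against the floxed exon was not examined.

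Of 19 corepressors and chromatin partners of Runx and ThPOK, 15 were measured and none passed; their medians were 0.54 on array 1 and -0.07 on array 2. Tle3, a Groucho-type corepressor that Runx proteins recruit, was at 0.47 and 0.43, and Hdac1, a histone deacetylase, at 0.54 and 0.19. Crebbp, a histone acetyltransferase, was at 2.55 and 0.18 with wild type measured on 1 of 2 arrays, and Chd4, the remodelling ATPase of NuRD, at -0.45 and -0.14.

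All 12 genes of a cytotoxic list were measured and none passed, with 9 above 0 on both arrays (30.9% of all genes) and medians of 0.93 and 0.57. Prf1, the perforin gene, was below 0 on both arrays, at -0.554 and -1.245. Ifng (-0.42 and 0.17) and Itgae (0.84 and -0.33) had opposite signs. Klrk1, the activating receptor NKG2D, was at 1.26 and 1.82, the chemokine genes Xcl1 and Ccl5 at 1.05 and 2.15 and at 1.02 and 1.76, and the granzyme gene Gzma at 0.72 and 0.80. For Klrk1 and Gzma wild type was well above background on 1 of 2 arrays. Of 12 helper and regulatory genes 4 were measured, where 9273 of 27597 genes were, and none passed. Icos, a costimulatory receptor, was at 1.10 and 1.26, and Cd40lg, the ligand for CD40 on B cells, at -0.39 and -0.08.

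Some genes listed as markers of other cells passed the test with a mean ratio above 0. Whether their RNA came from other cells or from the T cells themselves was not tested. Of 8 NK cell markers 6 were measured and 4 rose (Fcer1g, Klrb1c, Tyrobp and Cd7), where 1.24% of all genes rose. Tyrobp and Cd7 were well above background in all samples. Fcer1g was dim in wild type on both arrays and Klrb1c on 1. These were tested only through the knockout, where they were higher, which could favour a ratio above 0. Ncr1, at -0.20 and 0.86, and Klra8, at 0.02 and 0.33, did not pass. The summed linear signal of the list, by the brightest probe of each gene, was 95580 and 159500 in the knockout samples and 27170 and 17840 in wild type; Fcer1g, Itga2, Klra8 and Klre1 were not well above background in wild type. Of 12 macrophage and monocyte markers 9 were measured and 5 passed with a mean above 0, where 1.24% of all genes did. Adgre1, C1qc and Csf1r were dim in wild type on both arrays, and Ly86 and Lyz2 on 1. All 5 were thus tested only through the knockout, the genotype with the higher mean, which could favour a ratio above 0. Adgre1, C1qc, Csf1r and Ly86 were above 0 on both arrays, whereas Lyz2 was at 4.04 and -0.38. Of the 9 measured, 7 were above 0 on both arrays (30.9% of all genes), and all 7 were tested only through the knockout. Cd14, tested only through wild type, was below 0 on both (-0.40 and -0.08). In wild type, 9 of the 12 were not well above background on either array. Their sums were 23680 and 19900 in the knockout and 6818 and 13170 in wild type, and Cd68, Itgam and Spi1 were not well above background in either genotype. Dendritic cells matter here because some carry Cd8a: of 11 markers 7 were measured and 1 rose, Itgax, with sums of 19190 and 29070 against 9485 and 17860. Irf8 was at 0.78 and 0.56 and measured in all samples, and Batf3, dim in both wild-type samples, gave 0.36 and 0.68. Zbtb46 was at -0.27 and 0.05, and none of these passed. Of the 7 measured dendritic cell markers, 6 were above 0 on both arrays, as were 30.9% of all genes. Of these 6, Irf8 alone was well above background in wild type on both arrays. The others, Itgax among them, were tested only through the knockout, which could favour a ratio above 0. Xcr1 and Clec9a, which mark the dendritic cells that carry CD8 alpha, and Flt3 and Siglech were not well above background in any sample. The part of NK and macrophage RNA in the ratios of the coreceptor and regulator genes was not tested. Fewer cells of a type and less RNA per cell cannot be told apart in such bulk samples.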

How the data were processed

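Linearly amplified RNA (Agilent kit) was labelled by the Kreatech ULS method, as the labels' protocols state. The submitters' processing notes name Agilent Feature Extraction 9.5.3.1. Per the file headers, the deposited scanner files give the linear intensity of each spot and channel without normalisation, and log10 ratios that the software made after subtracting background and balancing the dyes. A deposited table of log10 ratios matched these to within 0.005, which settles its scale and direction; the median of both its columns was 0. Both arrays were on 1 slide and scanned together, so no batch was tested.

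Here limma 3.58.1 in R 4.3.3 was used: normexp with an offset of 50 corrected the background, and log2 ratios were normalised by loess, with control and outlier spots at weight 0 and then left out. Spots of a probe were averaged. Probe positions come from the array design, which the file headers place on mm8. Channel levels are log2 signals after loess and Aquantile normalisation. The mean ratio was tested two-sided with lmFit and eBayes. The fit was tested on simulated ratios in which all genes shared a common spread, which the fit itself assumes. There it recovered 7.83% of log2 changes of 1 in size, 76.9% of those of 2 and 100% of those of 3. The SDs of the real genes ran up to 5.68, so the simulation could not test unequal spreads. The members and gene lists were chosen with earlier results of these data known. Genes named are all members, and from each list up to 4 that passed or, failing that, had the same sign on both arrays. Those of the cytotoxic list that were not above 0 on both arrays and the 3 nearest genes per member are also named. Of the cell type markers, genes that passed are named, and some others after their values were seen. Alternatives changed the background correction, normalisation, filter, probe rule, variance prior and arrays. Only 2 arrays limit the precision. The p-values of the main fit rest on a spread pooled over all genes, which may be partly technical, and not on the spread of each gene. The B cell and erythroid marker lists are not reported here.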

Additional observations from a re-analysis of the deposited data

How the results depend on the processing

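None of the coreceptor or regulator genes passed under any alternative that was fitted. The count of all genes that passed, 138 here, was 35 without background correction, 64 with median centring, 39 for genes well above background in both channels on both arrays, 31 with each probe as its own row and 300 with an intensity trend. It was 0 with the software's log ratio, with ratios scaled to the same spread and without the filter (574, 902 and 2478 at an unadjusted p under 0.05, limma). Leaving out each array gave medians of the 6 genes from -0.11 (array 2 alone) to 1.44 (array 1 alone). Without array 1, Cd8a (-0.28), Runx3 (-0.02) and Cbfb (-0.20) turned below 0 and Runx2 was at 0.10, while Cd8b1 (0.93) and Cd4 (-0.21) kept their sign. By probe, the 5′ Cd8a probe gave a mean of -0.44 and the Cd8b1 probe placed on chromosome 5 gave -0.057. Cd8b1 ranged from 0.48, averaged with that probe, to 2.20 with median centring (adjusted p = 0.0774, limma, its lowest; the highest, by that average, was 0.870). The cause of these changes was not tested. No paired analysis was possible because each array already holds a pair and there is 1 group of ratios. Signal over background limits Runx1 and Zbtb7b, which were not tested, Cd4 in the knockout of array 2, and Runx2 and Runx3 in wild type of array 1.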
